A study of Mus musculus with 16 samples.

Results

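The miRNAs described here are mmu-miR-1224-5p, mmu-miR-1897-5p, mmu-miR-721, mmu-miR-680, mmu-miR-689_v15.0 (miR-689 below) and mmu-miR-877-5p of the mouse lung, which make up 6 of the 611 mouse miRNAs on the arrays. They were chosen from the measured values, because most of them were raised together in allergic lungs and low after steroid treatment, and because several stood high on a single array of a control group. The differences between OVA/OVA and the other groups, the low values of OVA/OVA DEX and the high values on PBS/OVA replicate 2 are therefore given as description, without a test. All 6 were among the 266 miRNAs tested, for which some group had detection on each of its arrays.

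The study profiled miRNAs in whole lungs of BALB/c mice aged 8 to 12 weeks in a model of allergic airways disease (AAD) driven by ovalbumin (OVA, the egg white protein used as allergen) and sensitive to steroids. Mice of the PBS/PBS group (n = 2 arrays) received 1 mg of the adjuvant Alhydrogel in PBS on day 0 and PBS into the nose on days 12 to 15. The PBS/OVA group (n = 4) received the same adjuvant without allergen and then 10 μg OVA at each challenge. The OVA/OVA group (n = 6) was sensitised with 50 μg OVA in Alhydrogel and challenged with OVA. The OVA/OVA DEX group (n = 4) was treated in the same way and also received the glucocorticoid dexamethasone (DEX) by injection at 3 mg/kg from day 11. All groups thus carried the adjuvant, and lungs were taken on day 16, 24 hours after the last challenge. Nothing in the labels states whether each array came from a separate mouse, so the spread between arrays may be partly technical. In whole lung RNA, a change in the number of cells of a type and a change of RNA per cell cannot be told apart.

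MiRNAs are short RNAs that load into Argonaute proteins and lower the output of mRNAs whose sites pair with the seed, bases 2 to 8 of the miRNA. In AAD the lung fills with eosinophils, lymphocytes and other leukocytes, and glucocorticoids reduce this influx. Most miRNAs are cut from hairpins by the Drosha enzyme, while a few, the mirtrons, are released by splicing of a short intron, and miR-1224 and miR-877 are known as mirtrons.

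The mature sequences are shown because a shared seed would put the members into 1 family, and because those on record hold runs of guanine. The RefSeq table (GRCm38.p6) held 4 of the 6, and miR-1897-5p and miR-689 are named only. Capitals mark the seed.
miR-1224-5p: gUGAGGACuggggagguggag
miR-721: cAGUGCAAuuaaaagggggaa
miR-680: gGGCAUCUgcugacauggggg
miR-877-5p: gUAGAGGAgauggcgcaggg
The 4 seeds differ, so the 4 miRNAs belong to no common seed family. Each sequence carries a run of guanines after the seed, at bases 10 to 13 in miR-1224-5p, 15 to 19 in miR-721, 17 to 21 in miR-680 and 18 to 20 in miR-877-5p. The 4 bases GGGG occurred in 3 of these 4 sequences, and in 13 of the 221 tested miRNAs with a sequence (5.88%), the 3 members included. GGGG was searched on the mature strand only, and a match is a feature of the letters and no site.

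The genes of the 5 members found in the table lie on different chromosomes, and miR-689 had no entry. On GRCm38.p6, mature miR-1224-5p is at chr16:20604452-20604472 on the plus strand, within the bounds of Vwa5b2. Mature miR-721 is at chr5:136375777-136375797 on the minus strand within Cux1, which encodes a homeobox transcription factor. Mature miR-877-5p is at chr17:35960795-35960814 on the minus strand within Abcf1, which encodes an ATP-binding cassette protein that acts in translation. The hairpin of miR-1897 is at chr3:34638464-34638542 on the plus strand within the long non-coding gene Sox2ot. For miR-680, 3 copies produce the same mature RNA, at chr6:129691541-129691561 on the plus strand, chr12:35194849-35194869 on the minus strand and chrX:144297790-144297810 on the plus strand, none within another listed gene, and their signals cannot be separated. The table used gives gene bounds only, so exon and intron positions are not stated.

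The 16 arrays lay on 2 slides, with both PBS/PBS arrays on slide 1 and arrays of every other group on both slides. The summed miRNA signal before scaling ran from 251350 to 940050, and 4 of the 6 OVA/OVA arrays were dimmer than every array of the other groups. Between 224 and 301 miRNAs were detected per array. PBS/OVA replicate 2 stood apart from the other PBS/OVA arrays for the members. Whether it is a lung of its labelled group was not tested, so values of PBS/OVA are given with and without it. As a check of the tissue, 5 of 5 epithelial and 2 of 2 endothelial marker miRNAs were detected on all arrays. The summed scaled signal of 5 haematopoietic markers (miR-142-3p, miR-142-5p, miR-150-5p, miR-223-3p and miR-342-3p) was 32912 to 48381 in OVA/OVA, above the 16289 to 24225 of PBS/OVA, the 20891 and 23499 of PBS/PBS and the 18444 to 27194 of OVA/OVA DEX. The summed signal of 2 red cell markers was 37072 to 70602 in OVA/OVA against 100325 to 136429 in OVA/OVA DEX, and that of 4 striated muscle markers, of which miR-206-3p was detected on no array, was 624 to 2134 against 1686 to 2881. The part of these shifts in the results that follow was not tested.

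MiR-1224-5p gave a signal far above background on every array, and the word dim did not apply to it. Its spots were at least 69.9 times as bright as the negative control spots of the same array. In scaled signal, which is the probe sum divided by the 75th percentile of each array relative to the median array, it reached 662 and 536 in PBS/PBS. In OVA/OVA it was 1647, 2018, 1770, 940, 1116 and 1673 on replicates 1 to 6, and in OVA/OVA DEX 663, 478, 787 and 798 on replicates 1 to 4. The lowest OVA/OVA array thus lay above the highest of OVA/OVA DEX and of PBS/PBS. PBS/OVA held 549, 671 and 579 on replicates 1, 3 and 4 but 7467 on replicate 2, which exceeded all 6 OVA/OVA arrays.

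MiR-1897-5p and miR-689 were also detected on all 16 arrays, with spots at least 4.28 and 7.84 times as bright as the negative control spots. MiR-1897-5p was at 33.4 and 30.0 in PBS/PBS, at 34.0, 43.7 and 39.0 on PBS/OVA replicates 1, 3 and 4, and at 367 on PBS/OVA replicate 2. Its OVA/OVA values were 111, 124, 273, 57.2, 69.2 and 133, and its OVA/OVA DEX values were 50.3, 29.3, 40.4 and 58.7. It was the member whose OVA/OVA and OVA/OVA DEX arrays overlapped, by OVA/OVA replicate 4 alone. MiR-689 was at 75.5 and 58.6 in PBS/PBS, at 68.9, 590, 78.1 and 82.1 in PBS/OVA, at 200, 244, 605, 110, 124 and 276 in OVA/OVA and at 85.5, 53.6, 70.5 and 84.0 in OVA/OVA DEX. For miR-689, OVA/OVA replicate 3 and PBS/OVA replicate 2 stood well above all other arrays.

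The other 3 members, miR-721, miR-680 and miR-877-5p, were near the background in OVA/OVA DEX and closer to it in PBS/PBS than in OVA/OVA. MiR-721 was at 113, 124, 197, 56.8, 59.9 and 126 in OVA/OVA, where it was detected on 6 of 6 arrays. It was at 12.6 and 13.2 in PBS/PBS and at 6.4, -0.39, 10.1 and 13.4 in OVA/OVA DEX, and was detected on none of these 6 arrays. In PBS/OVA it was at 21.9, 258, 31.0 and 18.1, with detection on replicates 2 and 3. MiR-721 was therefore flagged as detected on every OVA/OVA array and had only a bound in PBS/PBS and OVA/OVA DEX. On OVA/OVA replicate 5, however, only 1 of its 20 spots was well above background.

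MiR-680 was at 109, 113, 167, 64.0, 71.9 and 125 in OVA/OVA and at 16.2, 6.7, 21.3 and 23.9 in OVA/OVA DEX, where it was detected on 0 of 4 arrays. It was at 22.3 and 20.2 in PBS/PBS and at 28.8, 111, 24.7 and 34.7 in PBS/OVA. MiR-877-5p was at 104, 100.4, 98.2, 63.5, 47.1 and 63.6 in OVA/OVA and at 14.6, 2.9, 12.7 and 14.4 in OVA/OVA DEX, again with detection on 0 of 4 arrays. It was at 14.5 and 19.0 in PBS/PBS and at 24.5, 55.7, 22.1 and 26.1 in PBS/OVA, and was detected on 1 array of each group. In OVA/OVA DEX the mean spot signal of miR-721, miR-680 and miR-877-5p was at most 0.914, 1.92 and 1.14 times that of the negative control spots, against at least 4.32, 4.43 and 3.40 times in OVA/OVA. Even so, few spots were well above background on some OVA/OVA arrays. For miR-877-5p these were 8 of 20 on replicate 3, 0 of 20 on replicate 5 and 2 of 20 on replicate 6. For miR-680 they were 3 of 19 on replicate 5.

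**Figure D1:**
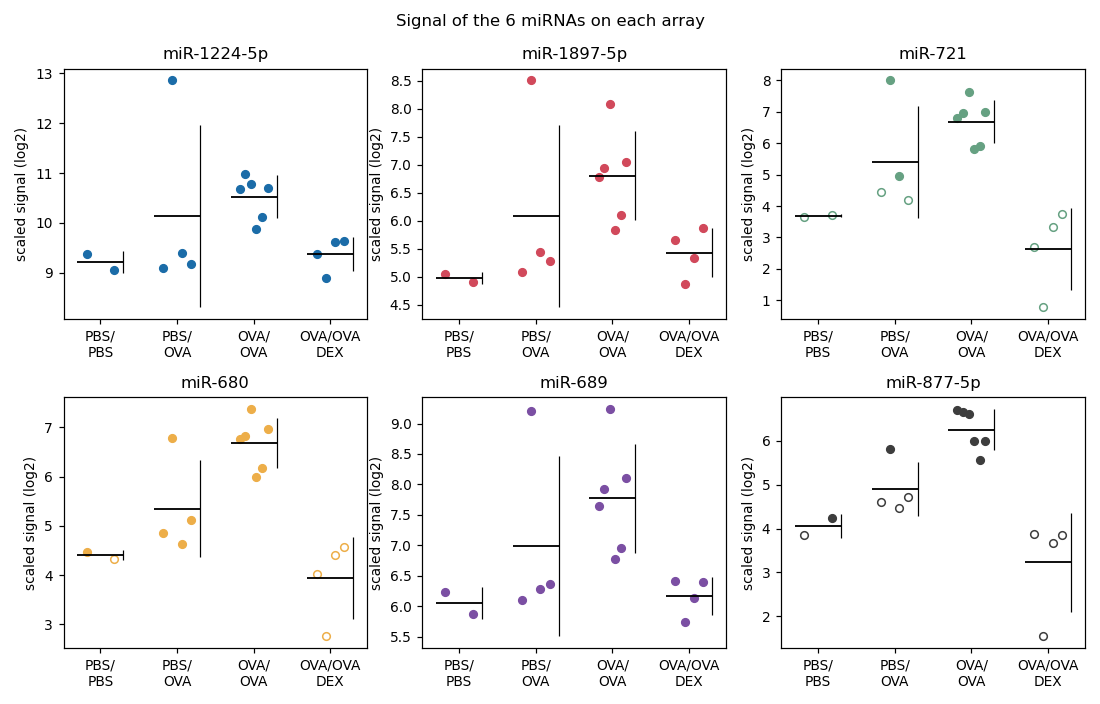
Scaled signal (log2) of each of the 6 miRNAs on each of the 16 arrays, by group, with filled points where the miRNA was detected and open points where it was not, horizontal lines at group means and vertical lines for ± 1 SD. The OVA/OVA points lie above those of PBS/PBS for all 6 miRNAs, and PBS/OVA replicate 2 lies apart from the other 3 arrays of its group.

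Each member was read by 20 spots, from 2 probes for miR-1224-5p, miR-1897-5p and miR-689 and from 4 probes for the others. In OVA/OVA the standard error from the spots was 0.518 to 1.53% of the signal for miR-1224-5p, and 3.15 to 10.0% for miR-877-5p, the widest range among the members. Where signals were low the spot error was larger, up to 59.6% for miR-877-5p, 35.9% for miR-680 and 31.4% for miR-721 in OVA/OVA DEX, and up to 12.1% and 12.7% for miR-721 in PBS/PBS and PBS/OVA. Within OVA/OVA, on the log2 scale, the largest spot error of any member, 0.14 for miR-877-5p, was below its SD of 0.47 between arrays. This comparison covers OVA/OVA only. The probes of 1 miRNA also ran in parallel, with a correlation over the 16 arrays of at least 0.958 for each pair of probes, although the 2 probes of miR-689 differed 3.99-fold in mean signal in OVA/OVA and those of miR-1224-5p 1.88-fold. All probes of all members had a higher unscaled mean in OVA/OVA than in OVA/OVA DEX.

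The comparison of OVA/OVA with OVA/OVA DEX asks which miRNAs of the allergic lung are lowered by a steroid. As differences of mean log2 scaled signal, miR-721 was 4.05 higher in OVA/OVA, miR-877-5p 3.02, miR-680 2.74, miR-689 1.60, miR-1897-5p 1.37 and miR-1224-5p 1.14, with a median of 2.17 for the 6 against -0.09 for all 266 tested. In folds, miR-1224-5p was 2.21-fold, miR-1897-5p 2.59-fold and miR-689 3.03-fold higher. MiR-721, miR-680 and miR-877-5p were detected on no OVA/OVA DEX array, so their folds are bounds. With the main processing OVA/OVA was at least 10.9-fold, 6.70-fold and 7.17-fold higher. For miR-680 this equals the fold from its own undetected signals. With normexp background correction the log2 differences of miR-721 and miR-680 were 0.65 and 0.58, below these bounds. Arrays of both groups did not overlap for 5 of the 6 members, and 14.7% of all tested miRNAs were higher in OVA/OVA without overlap. This contrast chose the members, so nothing is read from that count. All 6 differences kept their direction within each slide, with a median of 1.94 on slide 1 (2 arrays of each group) and 2.44 on slide 2 (4 and 2 arrays). With normexp background correction the median was 0.65. Without scaling between arrays the median was 1.88, but only 3 of the 6 members then had arrays that did not overlap. The share over all tested miRNAs is not given for unscaled signal.

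Against PBS/PBS the members were 1.31 (miR-1224-5p) to 2.99 (miR-721) higher in OVA/OVA on the log2 scale, with a median of 2.01 against -0.02 for all tested. For miR-721, detected on neither PBS/PBS array, this is 7.97-fold from its own undetected signals, a bound for the main processing only. Its log2 difference was 1.90 without scaling and 1.27 with normexp correction. All 6 members had arrays that did not overlap, where 25.9% of tested miRNAs were higher in OVA/OVA without overlap. Without scaling, 2 of the 6 were free of overlap, with no share over all tested miRNAs given for that setting. The median was 0.91 without scaling, 1.06 with array brightness as a covariate, 1.21 with scaling on control spots and 1.24 with normexp correction. On slide 1 alone, which holds both PBS/PBS arrays, it was 2.14.

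Against PBS/OVA the outcome turned on a single array. The members were 0.39 (miR-1224-5p) to 1.35 (miR-877-5p) higher in OVA/OVA, with a median of 1.04, and the arrays overlapped for all 6. In all tested miRNAs, 10.9% were higher in OVA/OVA without overlap. Without PBS/OVA replicate 2 the members were 1.30 to 2.16 higher with a median of 1.59. All 6 were then free of overlap, against 16.5% of all tested. Without scaling 2 of 6 were, and no share over all tested is given for that setting. On slide 1, which holds that array, the median was 0.22, with miR-1224-5p at -0.30 and miR-1897-5p at -0.11, and it rose to 1.72 without the array. On slide 2 the median was 1.56.

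**Figure D2:**
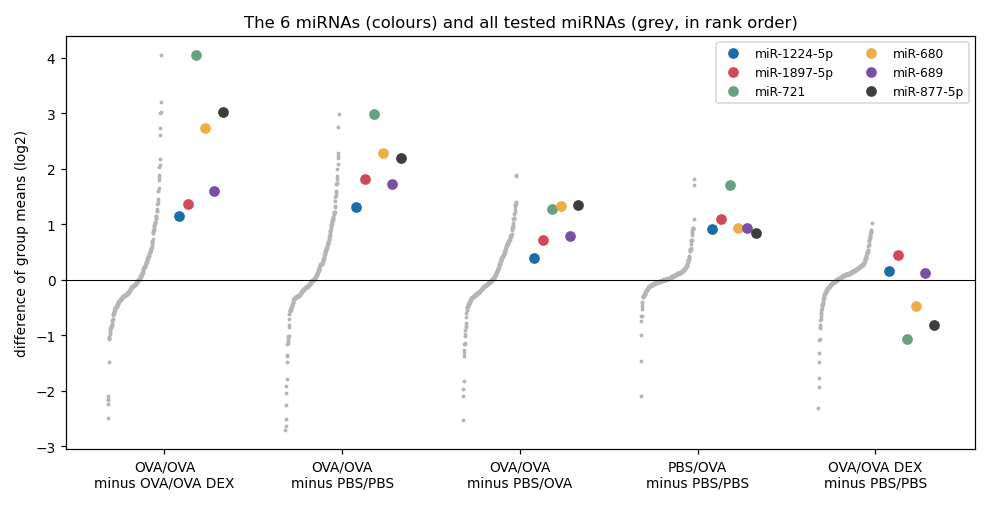
Differences of group means in log2 scaled signal for 5 comparisons, with the 6 miRNAs in colour and all 266 tested miRNAs as grey points in rank order. The members sit at the upper end when OVA/OVA is set against OVA/OVA DEX or PBS/PBS (medians 2.17 and 2.01) and on both sides of 0 when OVA/OVA DEX is set against PBS/PBS, where the 3 below 0 were detected on no OVA/OVA DEX array.

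PBS/OVA replicate 2 lay in or above the OVA/OVA range for all 6 miRNAs. Set against the average of the remaining 3 arrays of its group, it was 3.64 higher on the log2 scale for miR-1224-5p, 3.48 for miR-721, 3.24 for miR-1897-5p, 2.95 for miR-689, 1.93 for miR-680 and 1.21 for miR-877-5p. These were ranks 1, 2, 3, 5, 7 and 18 of 266, and in all 22 tested miRNAs (8.27%) were at least 2-fold higher on this array. MiR-1224-5p, miR-1897-5p and miR-721 were above all 6 OVA/OVA arrays there, miR-689 above 5, miR-680 above 3 and miR-877-5p above 1. The array had a summed miRNA signal of 493063, the lowest outside OVA/OVA. The 3p arm of the miR-1897 hairpin, measured by its own probes, was detected on this array alone, at a scaled signal of 91.1, while on the other 15 arrays it did not exceed 0.0171. The 3p arm of miR-877 was not raised there (28.7, against 28.4 to 178 in PBS/OVA) and overlapped between OVA/OVA (35.8 to 231) and OVA/OVA DEX (30.0 to 271). Haematopoietic markers on the PBS/OVA arrays did not exceed 24225, below every OVA/OVA array.

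OVA/OVA DEX was set beside PBS/PBS as a description, because low values after DEX helped to choose the members. The log2 difference was 0.12 for miR-689, 0.17 for miR-1224-5p and 0.45 for miR-1897-5p, and the arrays of both groups overlapped. Each of these signs turned without scaling between arrays. No difference is given for miR-721, detected on no array of either group, or for miR-680 and miR-877-5p, each detected on a single PBS/PBS array and absent from the detected miRNAs of every OVA/OVA DEX array. By limma 0 of all 266 miRNAs were called in this contrast (0%), with 19 at an unadjusted p under 0.05. The exact Mann-Whitney test of 4 against 2 arrays cannot go below p = 0.133, so its 0 under 0.05 was fixed in advance. Nothing is read from these counts about the members.

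The effect of OVA challenge without sensitisation was tested without PBS/OVA replicate 2, which had helped to choose the members. Values of both groups below those of OVA/OVA also helped to choose them, and leaving out the high array lowers the differences. The test is therefore not independent of the choice. The log2 difference was 0.00490 ± 0.31 (SE) for miR-1224-5p, 0.19 ± 0.54 for miR-689, 0.29 ± 0.51 for miR-1897-5p and 0.46 ± 0.49 for miR-680. None of these 4 was called by limma, with adjusted p from 0.991 to 0.998 and no unadjusted p under 0.05, where 1 of 266 miRNAs, miR-135b-5p, was called (0.376%) and 7 had an unadjusted p under 0.05. No difference is given for miR-721 or miR-877-5p, which were detected on at most 1 array of each group here. The arrays of both groups did not overlap for miR-1897-5p and miR-680, and overlapped for miR-1224-5p and miR-689. The share of all tested miRNAs without overlap is not given for this comparison, so nothing is read from that. The exact Mann-Whitney test of 3 against 2 arrays cannot go below p = 0.2, the value reached without overlap. The SE uses 1 spread for all 4 groups, while the SD of miR-1897-5p was 0.79 in OVA/OVA and 0.11 in PBS/PBS. The lack of calls is therefore no evidence that challenge alone had no effect. With replicate 2 included, the differences of the 4 were 0.92 to 1.10.

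Whether the 6 miRNAs moved as a unit was examined within OVA/OVA, where the treatment was the same on all 6 arrays. MiR-1897-5p, miR-721, miR-680 and miR-689 put the 6 arrays in an identical order, with replicate 3 highest, then 6, 2, 1, 5 and 4. Pearson correlations among these 4 lay between 0.970 and 0.997, each with an exact permutation p of 0.00139, the smallest that 720 permutations can give, and an adjusted p of 0.00347 over the 15 pairs of members. Spearman's rho was 1 for each of these pairs (exact permutation p = 0.00278, adjusted p = 0.00694). Without the 2 arrays farthest from the median of the first member of a pair, r stayed between 0.982 and 0.996.

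MiR-1224-5p followed this order less closely, with replicate 2 highest. It correlated with the 4 at r = 0.774 to 0.887, with exact permutation p of 0.0208 to 0.0639 and adjusted p of 0.0443 to 0.0958, and rho was 0.829 with each (exact permutation p = 0.0583, adjusted p = 0.0875). Without the 2 farthest arrays, replicates 4 and 5, r fell to between -0.0607 and 0.0867, so the relation of miR-1224-5p to the others rests on those 2 arrays. MiR-877-5p, highest on replicates 1 and 2, gave r = 0.609 to 0.742 with the other 5, none past the threshold (exact permutation p = 0.107 to 0.213, adjusted p = 0.146 to 0.213, rho 0.429 to 0.600). All 6 members had their lowest values on replicates 4 and 5, although for miR-877-5p replicates 4 and 6 were nearly equal (63.5 and 63.6).

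The median r over the 15 pairs was 0.87, against 0.02 over the 35245 pairs of tested miRNAs, whose percentiles 5 and 95 were -0.787 and 0.840. Tested pairs share arrays and scaling, and this comparison is a description. Before scaling the members gave a median r of 0.89 and all pairs one of 0.90. No correlation within a slide is given, as slide 1 holds 2 OVA/OVA arrays and slide 2 holds 4, fewer than the 6 required here. In OVA/OVA DEX replicate 2 was lowest for all 6 members, 3 of them undetected, while the order of the other arrays differed between members.

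Array brightness, the log2 summed miRNA signal, was set against each member among the 6 OVA/OVA arrays. In scaled signal, 5 members were lower on brighter arrays, with r = -0.455 for miR-1224-5p, -0.611 for miR-1897-5p, -0.536 for miR-721, -0.598 for miR-680 and -0.631 for miR-689, while miR-877-5p had r = 0.148. None passed the exact permutation test (p = 0.176 to 0.753, adjusted p = 0.403 to 0.753 over 6 members). Spearman's rho was -0.771 for miR-1897-5p, miR-721, miR-680 and miR-689 (exact permutation p = 0.103, adjusted p = 0.154), -0.486 for miR-1224-5p (exact permutation p = 0.356, adjusted p = 0.427) and 0.143 for miR-877-5p (exact permutation p = 0.803, adjusted p = 0.803). Without the 2 arrays of most extreme brightness, r was -0.577 to -0.488 for those 4, -0.114 for miR-1224-5p and 0.0470 for miR-877-5p. The median over the members was -0.57, against 0.07 over all tested, whose lower and upper quartiles were -0.381 and 0.494. It was -0.30 without OVA/OVA replicate 4 and 0.028 with scaling on control spots.

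In unscaled signal the members followed brightness less than most miRNAs did. Their r was 0.750 for miR-1224-5p, 0.268 for miR-1897-5p, 0.433 for miR-721, 0.632 for miR-680, 0.144 for miR-689 and 0.829 for miR-877-5p, none past the exact permutation test (p = 0.0542 to 0.763, adjusted p = 0.325 to 0.763). The Spearman correlations ran from 0.143 to 0.886 (exact permutation p = 0.0333 to 0.803, adjusted p = 0.2 to 0.803). The median r of the members was 0.53, whereas that of all tested was 0.97. Without the 2 arrays of most extreme brightness, the members' r ran from -0.221 for miR-689 to 0.550 for miR-1224-5p. For each unit of log2 brightness, the unscaled log2 signal rose by 0.159 for miR-689, 0.278 for miR-1897-5p, 0.454 for miR-721, 0.552 for miR-680, 0.727 for miR-1224-5p and 1.14 for miR-877-5p, with a median of 1.04 over all tested.

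**Figure D3:**
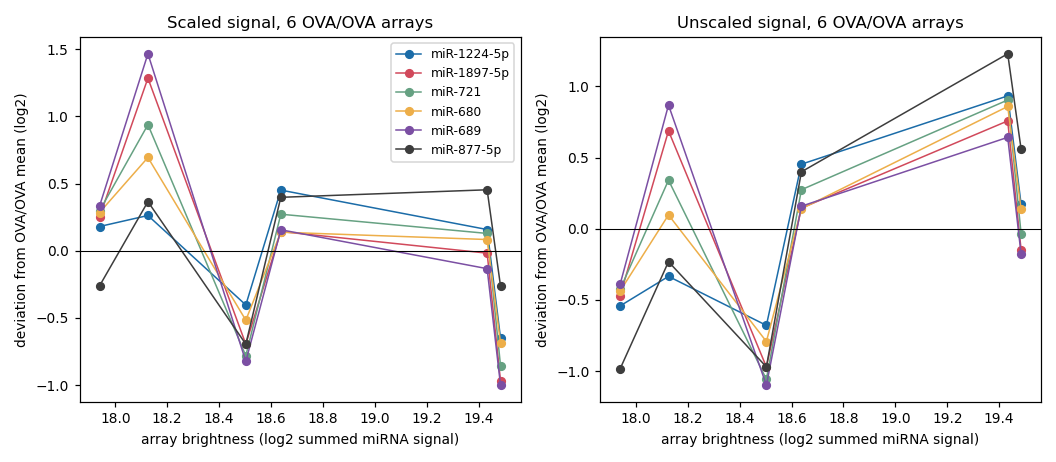
Deviation of each member from its own OVA/OVA mean (log2) against array brightness for the 6 OVA/OVA arrays, in scaled signal (left) and unscaled signal (right), with a line joining the points of each miRNA. MiR-1897-5p, miR-721, miR-680 and miR-689 trace the same outline in scaled signal, and miR-877-5p departs from it on replicates 1, 3, 4 and 6.

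Other miRNAs shared the profile of the members. Over all 16 arrays, the tested miRNAs most correlated with the mean standardised profile of the 6 were miR-188-5p (r = 0.98), miR-135a-1-3p (0.95), miR-1904 (0.92), miR-705 (0.92) and miR-21-5p (0.89), where the median of all tested non-members was -0.27. Of these 5, miR-188-5p also stood 3.16 higher on PBS/OVA replicate 2 than on the other PBS/OVA arrays on the log2 scale, miR-705 1.67, miR-135a-1-3p 1.32, miR-1904 1.15 and miR-21-5p 0.63. Over the 6 OVA/OVA arrays the closest were miR-188-5p (r = 0.99), miR-139-3p (0.95), miR-7a-5p (0.95), miR-142-3p (0.94) and miR-155-5p (0.92). MiR-142-3p is made by haematopoietic cells and miR-155-5p is induced in activated lymphocytes and macrophages. The other haematopoietic markers varied over these arrays, with r = 0.56 for miR-142-5p, 0.90 for miR-150-5p, 0.90 for miR-223-3p and 0.27 for miR-342-3p. On PBS/OVA replicate 2, where the members were high, miR-142-3p was 0.53 lower than on the other PBS/OVA arrays and miR-155-5p 0.27 higher. Without that array, over 15 arrays, the closest were miR-188-5p (0.98), miR-135a-1-3p (0.97), miR-7a-5p (0.96), miR-21-5p (0.95) and miR-155-5p (0.95).

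The sequences of the miRNAs with the closest profile over 16 arrays are shown to set them beside those of the members, with the seed in capitals.
miR-188-5p: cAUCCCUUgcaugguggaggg
miR-135a-1-3p: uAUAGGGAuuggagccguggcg
miR-1904: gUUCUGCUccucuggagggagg
miR-705: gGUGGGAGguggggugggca
miR-21-5p: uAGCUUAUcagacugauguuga
No seed among these equals that of a member. Guanine made up 38.1% of miR-188-5p, 45.5% of miR-135a-1-3p, 40.9% of miR-1904 and 70.0% of miR-705, but 22.7% of miR-21-5p, which is the median of the tested miRNAs with a sequence. For the members it was 61.9% in miR-1224-5p, 55.0% in miR-877-5p, 47.6% in miR-680 and 33.3% in miR-721, all above 30.4%, the upper quartile.

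Guanine content was looked at after the sequences had been seen, for the 221 of 266 tested miRNAs (83.1%) that matched the RefSeq table, and is a description. Among the 217 that were not members, the guanine share correlated with the difference between OVA/OVA and OVA/OVA DEX at r = 0.34 (rho = 0.27), with that between OVA/OVA and PBS/PBS at r = 0.21 (rho = 0.19), with that between OVA/OVA and PBS/OVA at r = 0.18 (rho = 0.15) and with the excess on PBS/OVA replicate 2 at r = 0.35 (rho = 0.27), across miRNAs that share arrays and are not independent. Of 21 non-members with at least 40% guanine, 7 were at least 2-fold higher in OVA/OVA than in OVA/OVA DEX and 0 at least 2-fold lower, against 15 and 8 of the 196 with less. On PBS/OVA replicate 2, 7 of the 21 and 8 of the 196 were at least 2-fold above the other PBS/OVA arrays. Of the 10 non-members with GGGG, 4 were at least 2-fold higher in OVA/OVA than in OVA/OVA DEX and 1 at least 2-fold lower, against 18 and 7 of the 207 without. On PBS/OVA replicate 2, 2 of the 10 and 13 of the 207 were at least 2-fold above the other PBS/OVA arrays, with medians of -0.07 and -0.11.

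**Figure D4:**
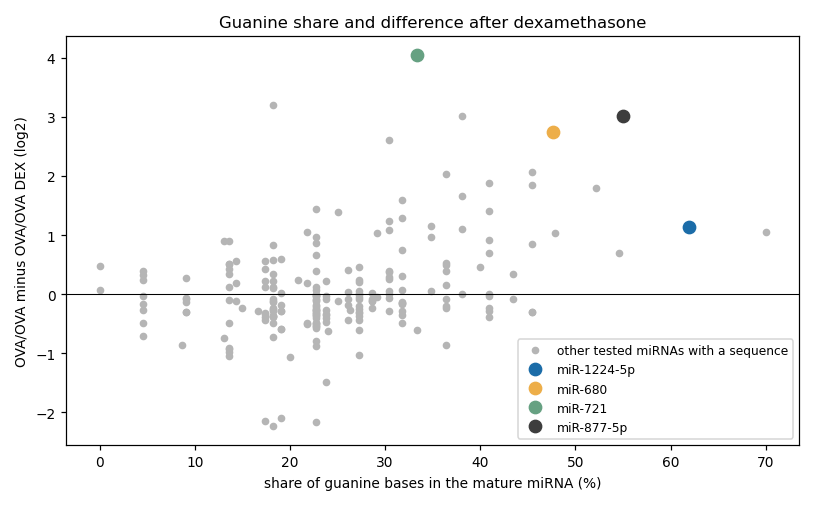
Difference between OVA/OVA and OVA/OVA DEX (log2) against the share of guanine bases in the mature miRNA, for 221 tested miRNAs with a sequence, the 4 members with a sequence in colour. The members lie at 33.3 to 61.9% guanine and at 1.14 to 4.05 on the log2 scale, above most grey points.

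Brightness of the miRNA itself was set beside direction by dividing the tested miRNAs into 4 classes of like size by mean level over all arrays. Of the 67 dimmest, 13 (19.4%) were at least 2-fold higher in OVA/OVA than in OVA/OVA DEX, as were 11 of 66 (16.7%) in the next class, 6 of 66 (9.09%) in the third and 2 of 67 (2.99%) in the brightest. The members fell 2, 2, 2 and 0 into these classes. They are included in the counts, and all 6 were at least 2-fold higher in this contrast, which helped to choose them. At least 2-fold lower were 7, 0, 1 and 2 miRNAs, so dim miRNAs moved both ways.

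MiRNAs numbered close to the members behaved in part like them. Among the names from miR-677 to miR-721, to which miR-680, miR-689 and miR-721 belong, 44 others were on the array and 7 were tested. All 7 were higher in OVA/OVA than in OVA/OVA DEX, by 0.00 (miR-720) to 1.23 (miR-712-5p), with a median of 0.57. In the 4 classes of mean level, 29.9 to 53% of all tested miRNAs were higher in this contrast. MiR-705 and miR-712-5p were at least 2-fold higher, and both were also high on PBS/OVA replicate 2 (1.67 and 1.80). Among the names from miR-1892 to miR-1907, around miR-1897, 3 of 17 others were tested, and miR-1892, miR-1895 and miR-1904 were 0.69, 0.85 and 0.91 higher in OVA/OVA than in OVA/OVA DEX.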

How the data were processed

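The authors deposited the scanner output of 16 Agilent 1-colour arrays (Mouse miRNA Release 12.0), in which Feature Extraction 10.7.3.1 gives the intensity of each spot with background subtracted and not normalized between arrays, with flags for detection and outlying spots. The authors also deposited a table of log2 values whose scaling is not described. In it miR-1224-5p and miR-1897-5p follow the scanner values at a constant offset of about -3.34 and -3.35 within 0.15, while the other 4 members do not on every array, so it was used for those 2 only, as an alternative.

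Spots without an outlier flag were averaged within probes, and probe means were added up within miRNAs. Arrays were scaled to a common 75th percentile, taken over the 206 miRNAs with detection on all 16, at the value of the median array. Values under a floor of 1.71 were raised to it (1 member value, miR-721 on OVA/OVA DEX replicate 2) before log2. A bound for an undetected group uses, per array, the lowest positive scaled signal of a detected miRNA or the member's own, whichever is higher. One limma 3.58.1 model (R 4.3.3) held the 4 group means of the 16 arrays, p-values were adjusted after Benjamini-Hochberg over 266 miRNAs, and a call needed an adjusted p under 0.05 and a 2-fold difference. Correlations used exact two-sided permutation tests over 6 arrays (Python 3.11.15, numpy 2.4.6, scipy 1.17.1, pandas 2.3.3, matplotlib 3.10.9). The fit and the permutation step were tested on simulated data. 39 viral miRNAs were not used.

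The members, the lists and the tests were chosen with earlier results of these data known. A planned test of OVA/OVA DEX against PBS/PBS is given as a description. Named beside the members were the 5 non-members closest in profile, the tested names near theirs in number, and marker miRNAs. The look at guanine content, the closest profile without PBS/OVA replicate 2, the 3p arms, the subtraction of negative control signal and the values within slides were added after seeing the data. Of the names on the array, 478 matched RefSeq as written or without a version suffix and 21 with the letter a added to the number. Normexp was run on the median spot signal. Replicate numbers come from the labels, and array numbers limit the precision.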

Additional observations from a re-analysis of the deposited data

Results flagged for a closer look

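Single arrays stood apart from their group in 4 of the 18 sets of values examined (6 miRNAs in the 3 groups of 4 or 6 arrays), by the gap to the nearest array as a share of the group's range on the log2 scale. Chance gives such a gap in about 1 of 20 sets. PBS/OVA replicate 2 was high for miR-1224-5p (share 0.923), miR-689 (0.918) and miR-1897-5p (0.894), where the limit for 4 arrays is 0.829. These sets come from the same array and are not independent, and its high values helped to choose the members. OVA/OVA DEX replicate 2 was low for miR-877-5p (0.912), at a log2 scaled signal of 1.55, on an array where the miRNA was not detected.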

How the results depend on the processing

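Of 172 recalculated values for the summaries over the 6 miRNAs, 161 stayed within the spread of the reported value or kept the count of calls. Every count of calls was 0, and nothing is read from those. The other floors and the mean over probes left every median unchanged. The 161 therefore include many values that did not or could not move, and are no measure of stability. The median difference between OVA/OVA and OVA/OVA DEX moved to 0.65 with normexp background correction, and to 3.13 with the negative control signal subtracted, an alternative added after seeing the data. That between OVA/OVA and PBS/PBS moved to 0.91 without scaling between arrays, 1.21 with spike control scaling, 1.24 with normexp and 1.06 with array brightness as a covariate. That between OVA/OVA and PBS/OVA moved to 0.22 within slide 1. The median correlation of the members with brightness moved to 0.53 without scaling, 0.028 with spike control scaling and -0.93 with normexp, and their median pairwise correlation to 0.66 with spike control scaling. The cause was not tested.

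With 1 array left out at a time, the median differences ran from 1.90 to 2.34 against OVA/OVA DEX, from 1.85 to 2.15 against PBS/PBS and from 0.73 to 1.59 against PBS/OVA, the last without PBS/OVA replicate 2. The median pairwise correlation ran from 0.82 to 0.96 and that with brightness from -0.75 to -0.30. The number of members called stayed at 0 for OVA/OVA DEX against PBS/PBS and for PBS/OVA against PBS/PBS under every alternative run. Among these, the exact Mann-Whitney test of 4 against 2 arrays cannot go below p = 0.133 and could give no call. Low values after DEX and PBS/OVA replicate 2 had helped to choose the members. That array is in every run of PBS/OVA against PBS/PBS except the one that left it out. Nothing is read from these counts.

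Replicate numbers were no evidence of pairing, since arrays with the same number in different groups had deviations with a median correlation of -0.0566 (18 pairs, -0.780 to 0.406). With the replicate block the medians were 2.26, 2.21 and 1.15 against OVA/OVA DEX, PBS/PBS and PBS/OVA, and 0 members were called between OVA/OVA DEX and PBS/PBS or between PBS/OVA and PBS/PBS.

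For single members, all 140 recalculated differences against OVA/OVA DEX and all 128 against PBS/PBS stayed above 0, as did 138 of 140 against PBS/OVA. The other 2 were miR-1224-5p without scaling (-0.12) and with spike control scaling (-0.23). Sizes moved outside the spread of the reported value in 12, 30 and 17 of these. Values within slides are not counted here, and the members were chosen for being high in OVA/OVA. The differences between OVA/OVA DEX and PBS/PBS, which for miR-721, miR-680 and miR-877-5p rest on signals mostly not detected, changed sign in places. For miR-1224-5p this was -0.15 with the percentile over all mouse miRNAs, -0.64 without scaling, -0.044 with spike control scaling and -0.30 with the brightness covariate. For miR-1897-5p it was -0.36 without scaling and -0.22 with the covariate. For miR-689 it was -0.20, -0.69, -0.093 and -0.60 under the settings named for miR-1224-5p, -0.15 with quantile normalization and -0.065 to 0.30 when arrays were left out. With normexp, miR-721, miR-680 and miR-877-5p were at 0.62, 0.63 and 0.63. With the Feature Extraction total signal, these 3 had no difference, as both groups were then at the same floor.

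The deposited log2 values could not be used for the medians, the correlations or 4 of the members. A PBS/PBS group left with 1 array was assumed to vary like the others. Spot signals close to those of negative controls limit what can be said of miR-721, miR-680 and miR-877-5p in OVA/OVA DEX.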
